A study of Mus musculus with 8 samples.

Results

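The line carrying F266A mutant WDR5 was compared with the line carrying wild-type (WT) WDR5 in cells harvested without doxycycline. Neither transgene was then being induced, though both had been induced before plating. Differences are given as F266A -dox minus WT -dox. The comparison used every array labelled with no doxycycline, which is 4 of the 8 arrays of the series and 2 arrays per line. Both groups were V6.5 mouse embryonic stem cells (ESCs) infected with a lentivirus and sorted for GFP. The virus carried an shRNA against mouse Wdr5 that was expressed at all times, together with a human WDR5 cDNA, F266A or WT, linked to GFP and placed behind a doxycycline-inducible promoter. The other 4 arrays, F266A +dox and WT +dox, came from the same lines kept in 2 µg/mL doxycycline, and they are used here only to ask whether a line difference was also present under induction. Every group carried the shRNA, so the series holds no arrays of cells free of knockdown. Cells were grown on gelatin with LIF and doxycycline. For RNA work, sorted cells were plated with or without doxycycline and harvested after several days. The -dox arrays thus follow withdrawal of a transgene that had been on. The study describes 1 infected and sorted line per transgene and no independently made second line. The arrays are described as biologic duplicates, with nothing to say that they came from separate infections, so p-values measure the spread between duplicates of these particular lines. The mutation, the sites and number of viral insertions, and the culture history of each line cannot be told apart in this comparison.

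WDR5 is a WD-repeat adaptor protein that holds together the MLL and SET1 complexes, which methylate histone H3 at lysine 4 near the start of active genes. In mouse ESCs it is known to help sustain self-renewal and the expression of pluripotency genes. The study made F266A, in which a phenylalanine of WDR5 is replaced by alanine, to ask what WDR5 does when it cannot bind RNA. The residue lies in a cleft near the surface that the partner protein RBBP5 uses. Naive mouse ESCs grown in LIF express transcription factors such as NANOG, ESRRB, KLF4 and TBX3, while cells that leave this state towards a primed epiblast switch on genes such as Fgf5.

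All levels below are log2 values after robust multi-array averaging (RMA), and a difference of 1 is a 2-fold change. A gene was tested if it had a probe set with exactly 1 gene symbol and a value over 50 on the linear scale (5.64 on the log2 scale) in at least 1 of the 8 arrays, and the mean over such probe sets was taken for each gene, giving 11940 genes. Arrays had medians from 5.36 to 5.39, and duplicates correlated at 0.997 to 0.998 over all probe sets. The probe sets for 18S ribosomal RNA stood apart between the lines: their mean was 9.93 and 9.95 in the F266A -dox arrays, against 11.42 and 11.04 in the WT -dox arrays, and with doxycycline it was 10.90 and 10.68 in F266A and 11.65 and 11.33 in WT. The part of this difference in the results below was not tested. Mouse Wdr5 itself, read by 2 probe sets, averaged 9.31 and 9.27 in F266A -dox and 9.45 and 9.35 in WT -dox, a difference of -0.11 that was not called (adjusted p = 0.271 by limma). Its brighter probe set read 10.30 and 10.39 in F266A -dox and 10.62 and 10.57 in WT -dox, and the 2 probe sets differed between the lines by -0.25 and 0.03. Taking the brighter probe set for each gene, in place of the mean, Wdr5 was called lower in F266A -dox (adjusted p = 0.0276 by limma). The sources do not state whether the shRNA site or the human transgene overlaps these probe sets.

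Without doxycycline, 3277 of the 11940 genes were called at an adjusted p under 0.05 (limma with Benjamini-Hochberg adjustment), which is 27.4% of those tested. Of these, 1676 were higher in F266A -dox (14.0% of genes tested) and 1601 were lower (13.4%). The large changes ran mainly one way: 193 called genes were at least 2-fold higher in F266A -dox (1.62%) and 23 were at least 2-fold lower (0.193%). The median difference over all genes was -0.0089, and the median SE of a difference was 0.08. Which arrays entered the fit moved the total: 1944 genes were called without WT -dox replicate 2, 2054 without WT -dox replicate 1, 2141 without F266A -dox replicate 2 and 2839 without F266A -dox replicate 1. The count of 2-fold calls lay between 207 and 251 when any 1 of the 8 arrays was left out. A stricter statistic with a constant added to its error, modelled on the SAM test named in the study's methods, called 0 genes after adjustment. It had 1229 genes at an unadjusted p under 0.05, against 4619 by limma. Its p-values were read from a t distribution with 4 degrees of freedom, which such a statistic does not follow, and no permutations were run. Its 0 calls therefore do not show what SAM would call. At the 2-fold level, 48 of the 193 higher genes had a WT -dox mean under the expression minimum and 6 of the 23 lower genes had an F266A -dox mean under it, so their differences rest on a signal below the minimum in that group.

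The genes that were highest in F266A -dox came from several families. The rule that chose them required a 2-fold call and no overlap between the 2 lines, so their separation is not a result. Sp5, a zinc-finger factor induced by WNT signalling, read 8.96 and 9.18 in F266A -dox and 6.29 and 6.57 in WT -dox, a difference of 2.64 ± 0.13 (SE, n = 2 per group) or 6.23-fold (limma adjusted p = 5.66e-06). Cryab, the small heat shock protein alpha-B crystallin, read 9.22 and 9.43 in F266A -dox and 6.65 and 6.95 in WT -dox, a 5.75-fold difference. Krt19, a keratin of simple epithelia, read 10.03 and 10.49 in F266A -dox and 7.79 and 7.84 in WT -dox, a 5.44-fold difference. These 3 genes were above the minimum in all 4 arrays. Igf2, an imprinted fetal growth factor, read 11.08 and 11.14 in F266A -dox and 8.75 and 8.85 in WT -dox (4.95-fold). Igfbp3, which binds IGFs in the extracellular space, read 9.95 and 10.09 in F266A -dox and 7.75 and 7.94 in WT -dox (4.51-fold). Amot, angiomotin, which holds the coactivator YAP at cell junctions, read 9.85 and 9.90 in F266A -dox and 7.48 and 7.78 in WT -dox (4.74-fold). In these 3 genes the duplicates lay far closer to each other than the lines did. The others of the 12 highest were Gbp2, Gbp2b and Irgm1, described below, Efemp1, a secreted fibulin (difference 2.43), Prss23, a serine protease (2.37), and Wls, the carrier that takes WNT proteins to the cell surface (2.23). For Wls both WT -dox arrays, at 5.0 and 5.18, lay under the minimum, and its 3 probe sets gave differences from 1.58 to 2.85.

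**Figure D1:**
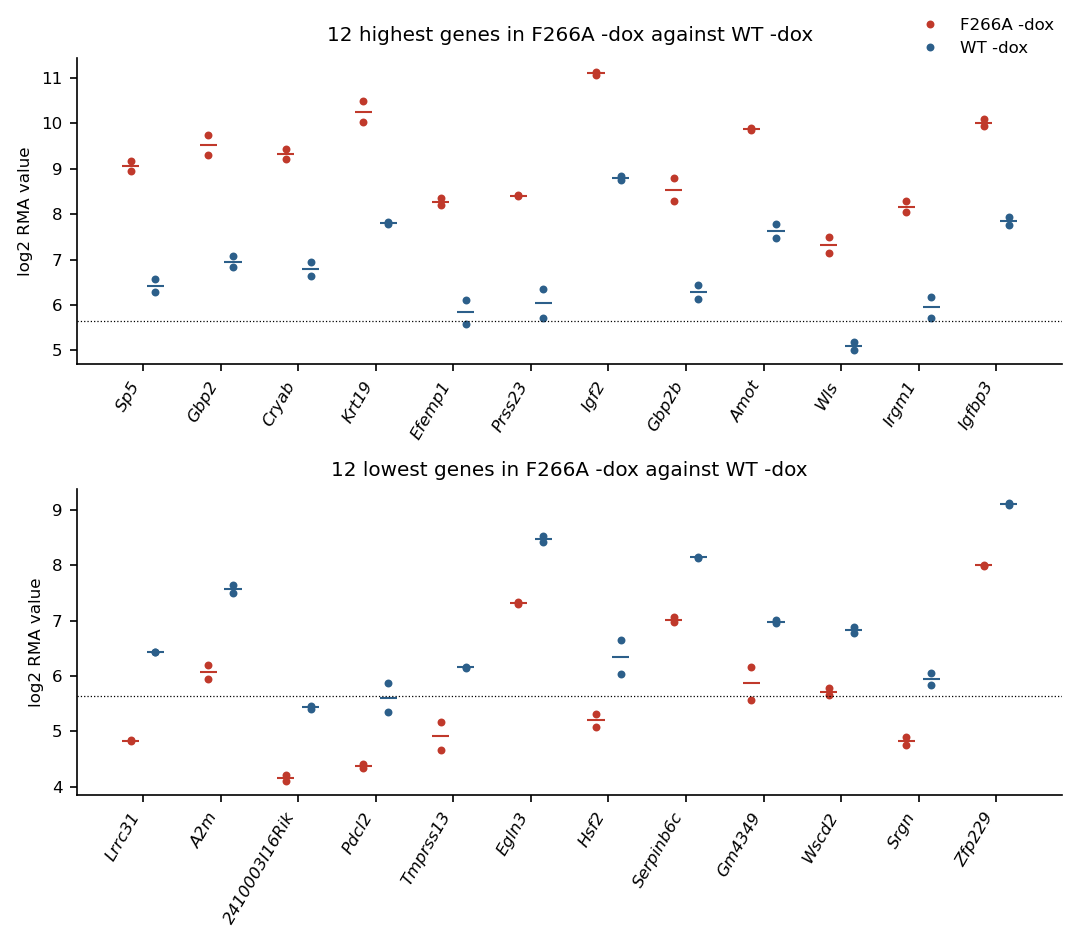
Log2 RMA values in each array for the 12 genes highest (top) and the 12 lowest (bottom) in F266A -dox, with F266A -dox in red to the left of WT -dox in blue; points are arrays, short bars are group means and the dotted line is the expression minimum of 5.64. The groups do not overlap for any of the 24 genes, as the rule that chose them requires, and 2410003I16Rik and Pdcl2 have both group means under the minimum.

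The genes that were lowest in F266A -dox changed less and lay closer to the minimum. Lrrc31, a leucine-rich repeat protein, read 4.82 and 4.85 in F266A -dox and 6.43 and 6.43 in WT -dox, so that it lay under the minimum in F266A -dox and above it in WT -dox (difference -1.60, adjusted p = 5.66e-06 by limma). A2m, the protease inhibitor alpha-2-macroglobulin, read 5.94 and 6.20 in F266A -dox and 7.50 and 7.65 in WT -dox (-1.50). Egln3, a prolyl hydroxylase that marks hypoxia-inducible factors for breakdown, read 7.34 and 7.30 in F266A -dox and 8.42 and 8.53 in WT -dox (-1.16). A2m and Egln3 were thus above the minimum in all 4 arrays. Serpinb6c, a serpin, read 7.07 and 6.98 in F266A -dox and 8.14 and 8.15 in WT -dox (-1.12), and Zfp229, a zinc-finger gene, read 7.99 and 8.01 in F266A -dox and 9.09 and 9.13 in WT -dox (-1.11). Both differences were many times the gap between duplicates. Of the rest of the 12 lowest, Tmprss13 (-1.24), Hsf2 (-1.15) and Srgn (-1.11) had an F266A -dox mean under the minimum, 2410003I16Rik (-1.27) and Pdcl2 (-1.24) had both means under it, and Gm4349 (-1.12) and Wscd2 (-1.11) had both means above it.

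Guanylate-binding proteins are interferon-induced GTPases that act against pathogens inside cells. Of 6 such genes on the array, 4 passed the minimum. All 4 were higher in F266A -dox, with a median difference of 1.98 against -0.0089 over all genes. Gbp3 and Gbp7 passed only in arrays of the F266A line, so their direction followed from the filter, and the count and median rest in part on it. Gbp2 read 9.31 and 9.74 in F266A -dox and 6.84 and 7.08 in WT -dox, a 5.93-fold difference that both of its probe sets showed (2.50 and 2.63). Gbp2b read 8.28 and 8.79 in F266A -dox and 6.14 and 6.44 in WT -dox (4.75-fold). Gbp3 read 6.73 and 6.78 in F266A -dox and 5.15 and 4.94 in WT -dox, and Gbp7 read 6.03 and 6.27 in F266A -dox and 5.0 and 5.17 in WT -dox, so that these 2 were above the minimum in F266A -dox and under it in WT -dox. Their limma adjusted p-values ran from 5.66e-06 for Gbp2 to 7.37e-05 for Gbp7. Gbp genes lie side by side on chromosome 3 and are alike in sequence, and cross-hybridisation between their probe sets was not tested. Irgm1, an immunity-related GTPase on chromosome 11, read 8.04 and 8.30 in F266A -dox and 5.72 and 6.18 in WT -dox (4.65-fold).

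The promoters of these 5 genes are shown because they moved together and share a motif of interferon-responsive promoters. Each run covers 250 bases before to 50 bases after a gene start in RefSeq on GRCm38.p6, read 5′ to 3′ on the strand of the gene, with matches to GAAANNGAAA on either strand in capitals. Gbp3 has a second start in the table without a match, which is not shown.
Gbp2 (chr3:142620413-142620712, plus strand): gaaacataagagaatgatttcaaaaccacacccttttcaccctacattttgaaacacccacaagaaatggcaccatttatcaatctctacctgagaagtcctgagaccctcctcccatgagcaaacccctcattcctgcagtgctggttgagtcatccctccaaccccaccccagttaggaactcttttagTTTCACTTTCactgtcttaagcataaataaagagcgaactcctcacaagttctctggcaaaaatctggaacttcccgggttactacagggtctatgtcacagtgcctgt
Gbp2b (chr3:142594597-142594896, plus strand): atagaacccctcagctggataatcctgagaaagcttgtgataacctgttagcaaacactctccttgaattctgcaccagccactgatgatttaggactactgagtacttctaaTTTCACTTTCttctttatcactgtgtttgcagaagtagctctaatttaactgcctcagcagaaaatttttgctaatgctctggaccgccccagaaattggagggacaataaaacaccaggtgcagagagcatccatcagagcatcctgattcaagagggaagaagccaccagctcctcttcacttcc
Gbp3 (chr3:142559794-142560093, plus strand): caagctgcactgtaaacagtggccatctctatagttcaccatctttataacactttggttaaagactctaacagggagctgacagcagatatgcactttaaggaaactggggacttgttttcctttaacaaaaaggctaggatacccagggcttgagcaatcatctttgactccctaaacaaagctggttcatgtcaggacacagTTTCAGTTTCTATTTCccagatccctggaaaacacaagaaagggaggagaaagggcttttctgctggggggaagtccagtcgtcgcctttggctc
Gbp7 (chr3:142530086-142530385, plus strand): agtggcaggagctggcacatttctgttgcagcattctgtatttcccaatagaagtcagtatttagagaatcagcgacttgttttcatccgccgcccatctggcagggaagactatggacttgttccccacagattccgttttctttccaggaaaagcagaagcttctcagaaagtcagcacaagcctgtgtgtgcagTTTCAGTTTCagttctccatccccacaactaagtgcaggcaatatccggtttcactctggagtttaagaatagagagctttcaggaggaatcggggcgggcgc
Irgm1 (chr11:48871371-48871670, minus strand): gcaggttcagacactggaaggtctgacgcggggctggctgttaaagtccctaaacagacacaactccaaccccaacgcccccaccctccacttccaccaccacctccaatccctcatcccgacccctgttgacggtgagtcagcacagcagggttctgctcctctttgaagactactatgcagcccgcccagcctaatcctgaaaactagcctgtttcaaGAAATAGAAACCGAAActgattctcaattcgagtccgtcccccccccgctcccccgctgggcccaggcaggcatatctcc
In the Gbp2 to Gbp7 runs the match lies on the opposite strand and reads TTTC first, while in Irgm1 it lies on the strand of the gene. Gbp3 and Irgm1 each hold 2 overlapping matches. The motif was found in 3.44% of all 32851 promoters of the table, in 3.23% of the 9640 tested genes with a promoter there, and in 13 of the 149 genes called at least 2-fold higher with a promoter there (8.72%), counting a gene if any of its starts had it. It was also found in 9 of the 19 interferon response genes described next, among them Oas1a and Ifitm2, which were lower in F266A -dox. The 13 genes include the 5 shown here, which were picked in part for the motif, and the 9 include Irgm1. These shares are therefore not independent of that choice. These matches are a description of the letters and not evidence of a bound factor.

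Interferon genes beyond this family did not all move the same way. Of 19 measured interferon response and antigen presentation genes, 10 were higher in F266A -dox and 5 lower, with a median of 0.41, beside 14.0% higher and 13.4% lower over all genes. Psmb8, a subunit of the immunoproteasome, read 7.87 and 7.85 in F266A -dox and 6.29 and 6.68 in WT -dox (1.38). B2m, the light chain of MHC class I molecules, read 9.38 and 9.63 in F266A -dox and 8.08 and 8.34 in WT -dox (1.30), and Tap1, which pumps peptides for MHC class I loading, differed by 0.97. The 5 lower genes, named after their values were seen, were Xaf1 (-0.77), Oas1a (-0.66), Ifitm2 (-0.34), Ifitm1 (-0.29) and Irf9 (-0.29). Without an expression minimum, which adds dim probe sets to the average, Tap1 was at 0.17 and no longer called.

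Genes of the naive pluripotent state were lower in F266A -dox. Of 22 measured, 18 were lower and 0 were higher, with a median difference of -0.51, against 13.4% lower and 14.0% higher over all genes. Nr0b1, the orphan nuclear receptor DAX1, read 10.35 and 10.20 in F266A -dox and 11.21 and 11.21 in WT -dox (-0.94, adjusted p = 4.13e-05 by limma). Prdm14, a factor of naive ESCs and germ cells, read 8.55 and 8.47 in F266A -dox and 9.38 and 9.37 in WT -dox (-0.86). Tbx3, a T-box factor downstream of LIF, read 7.93 and 7.92 in F266A -dox and 8.72 and 8.74 in WT -dox (-0.80). In these 3 genes both F266A -dox arrays lay below both WT -dox arrays. They were named as called members with large changes, so that separation follows largely from the choice. Esrrb, an orphan nuclear receptor of the naive network, read 8.54 and 8.59 in F266A -dox and 9.29 and 9.27 in WT -dox (-0.71, adjusted p = 6.41e-05 by limma), and its 3 probe sets gave -0.89 to -0.55. Tcl1, a cofactor of AKT (-0.86), Klf4 (-0.76), Tfcp2l1 (-0.68) and Fgf4 (-0.67), the FGF ligand that ESCs make, were also lower. Without an expression minimum Tfcp2l1 was at -0.17 and not called (adjusted p = 0.178 by limma). These changes were under 2-fold for every gene of the list.

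The core regulators changed less. Of 13 measured, 6 were lower (46.2%, beside 13.4% of all genes), 0 were higher, and the median was -0.26. Pou5f1, which encodes OCT4, read 12.83 and 12.72 in F266A -dox and 12.89 and 13.06 in WT -dox, and its difference of -0.20 was not called (adjusted p = 0.0922 by limma), though a fit with a trended and robust prior called it. Nanog read 11.92 and 11.78 in F266A -dox and 12.28 and 12.39 in WT -dox (-0.48, adjusted p = 0.00136 by limma), and Sox2 read 12.27 and 12.06 in F266A -dox and 12.58 and 12.57 in WT -dox (-0.41, adjusted p = 0.00482 by limma). The markers fit the ESC label in both lines, since the lowest value of Pou5f1, Sox2 or Nanog in these 4 arrays was 11.78.

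**Figure D2:**
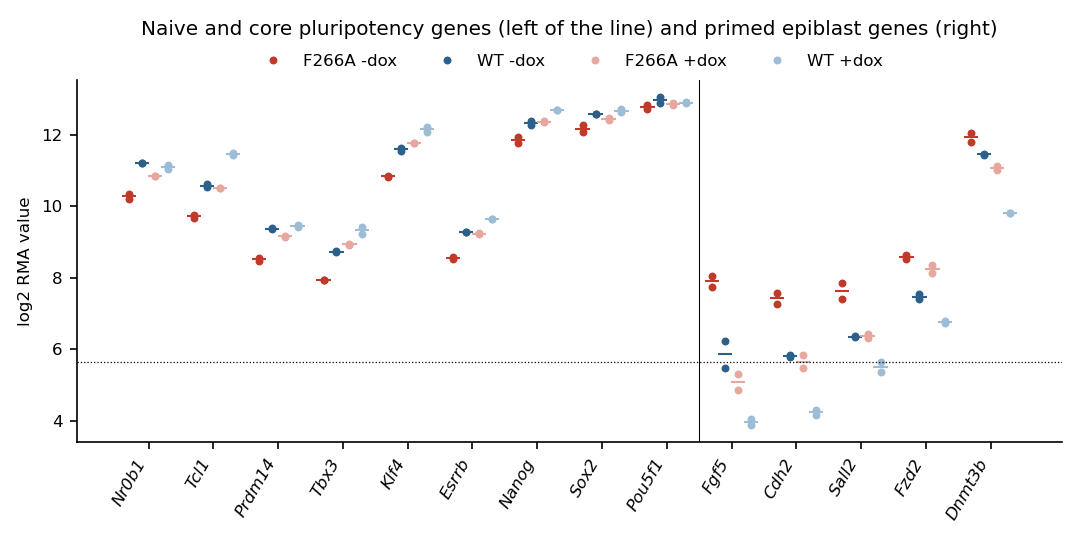
Log2 RMA values in each array for naive and core pluripotency genes (left of the vertical line) and primed epiblast genes (right), with points for arrays, bars for group means and a dotted line at the minimum of 5.64. In each naive gene drawn the F266A -dox arrays are the lowest of the 4 groups, and Fgf5 has its highest values, 7.74 and 8.06, in F266A -dox.

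Primed epiblast genes were partly higher. Of 21 measured, 9 were higher in F266A -dox (42.9%) and 3 lower (14.3%), beside 14.0% and 13.4% over all genes. The lower share was thus near that over all genes, and the median was 0.21. Fgf5, the growth factor that marks the primed epiblast, read 7.74 and 8.06 in F266A -dox and 5.49 and 6.24 in WT -dox, a 4.10-fold difference (adjusted p = 0.000255 by limma) in spite of the gap between the WT -dox duplicates. Cdh2, which encodes N-cadherin, read 7.59 and 7.26 in F266A -dox and 5.78 and 5.83 in WT -dox (3.07-fold), and Sall2, a zinc-finger factor, read 7.86 and 7.40 in F266A -dox and 6.38 and 6.33 in WT -dox (2.42-fold). Fzd2, a WNT receptor, differed by 1.10. The 3 lower genes, named after their values were seen, were Lefty2, a NODAL inhibitor (-0.54), Dnmt3l, a cofactor of DNA methylation (-0.44), and Otx2, a homeobox factor of the epiblast (-0.36).

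Genes of the germ layers and of trophoblast were higher in part. Over all genes 14.0% were higher and 13.4% lower. Of 18 ectoderm and neural genes, 8 were higher (44.4%) and 1 was lower (5.56%), with a median of 0.16. Nes, the intermediate filament nestin, read 7.93 and 8.10 in F266A -dox and 7.29 and 7.18 in WT -dox (0.78), and the neurofilament genes Nefm (1.07) and Nefl (1.04) were higher as well. Of 14 primitive streak and mesoderm genes, 8 were higher (57.1%) and 0 lower, with a median of 0.33. Fgf8, an FGF of the streak, read 7.74 and 7.88 in F266A -dox and 5.57 and 6.38 in WT -dox (1.84), and Mixl1, a homeobox factor of the streak, read 6.38 and 6.73 in F266A -dox and 5.88 and 5.83 in WT -dox (0.70). Hand1, a factor of mesoderm and trophoblast, read 6.74 and 6.86 in F266A -dox and 6.67 and 6.61 in WT -dox and was not called. Msx2, a BMP-responsive homeobox gene, and Actc1, cardiac actin, each differed by 0.75.

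Of 15 endoderm genes, 7 were higher in F266A -dox (46.7%) and 2 lower (13.3%), beside 14.0% and 13.4% over all genes. Their median was 0.23, and the highest were genes of basement membrane and uptake. Col4a2 read 9.13 and 9.49 in F266A -dox and 7.04 and 7.26 in WT -dox (2.16), its partner Col4a1 differed by 1.64, Lrp2, the endocytic receptor megalin, read 8.83 and 8.96 in F266A -dox and 7.12 and 7.18 in WT -dox (1.75), and Dab2, an endocytic adaptor, differed by 1.01. The mean level of the 15 tested members was 7.77 and 7.80 in F266A -dox and 7.26 and 7.29 in WT -dox. The factors that define endoderm differed among themselves. Foxa2 read 6.06 and 5.97 in F266A -dox and 5.61 and 5.52 in WT -dox (0.45). It passed the minimum in F266A -dox alone of the 4 groups, so its direction followed from the filter. Gata6 read 5.53 and 5.25 in F266A -dox and 5.54 and 5.50 in WT -dox, under the minimum in all 4 arrays, and Gata4 and Sox17 never passed the minimum in any of the 8 arrays. Lama1, the laminin chain of the early embryo, was lower, at 7.30 and 7.06 in F266A -dox and 7.94 and 8.13 in WT -dox (-0.86). Among 14 basement membrane genes, 7 were higher (50%) and 4 lower (28.6%), with a median of 0.16. That list fell to 4 higher and 3 lower without F266A -dox replicate 2 or without WT -dox replicate 2.

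Of 19 trophoblast genes, 11 were higher in F266A -dox (57.9%) and 3 lower (15.8%), beside 14.0% and 13.4% over all genes. Their median was 0.39, and 4 of the 11 were keratins. Krt8 read 12.61 and 12.81 in F266A -dox and 10.49 and 10.67 in WT -dox (2.13), and its partner Krt18 read 12.60 and 12.79 in F266A -dox and 10.45 and 10.63 in WT -dox (2.15). Krt7 differed by 1.47. Cdx2, the factor that sets trophectoderm apart, read 6.22 and 6.13 in F266A -dox and 5.65 and 5.33 in WT -dox (0.69, adjusted p = 0.0126 by limma), with a WT -dox mean under the minimum, and it was not called without F266A -dox replicate 1 (adjusted p = 0.0547 by limma) or without WT -dox replicate 2 (adjusted p = 0.0873 by limma). Eomes, a T-box factor of trophoblast and streak, read 8.18 and 8.10 in F266A -dox and 7.67 and 7.84 in WT -dox (0.39). Elf5 and Gata3, which also define trophoblast, never passed the minimum, although Gata3 at its highest probe set stood at 4.97 and 5.03 in F266A -dox and 3.87 and 3.89 in WT -dox. The mean level of the 19 tested members was 8.01 and 8.05 in F266A -dox and 7.47 and 7.39 in WT -dox. The wider list of simple epithelial keratins and junction genes was the more uniform: of 23 measured, 17 were higher, 0 were lower and the median was 0.48. Dsc2, a desmosomal cadherin, read 7.62 and 8.06 in F266A -dox and 5.86 and 5.96 in WT -dox (1.93). The trophoblast count fell to 8 higher and 1 lower without F266A -dox replicate 1 or without WT -dox replicate 2.

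Genes of contractile and matrix-rich cells were higher. Of 23 fibroblast and feeder cell markers on the array, 14 passed the minimum. Of these, 13 were higher in F266A -dox (92.9%, beside 14.0% of all genes) and 0 lower, with a median of 1.17. Tagln, an actin-binding protein of smooth muscle, read 11.93 and 12.27 in F266A -dox and 10.25 and 10.36 in WT -dox (1.80). Thbs1, the matrix protein thrombospondin, read 7.84 and 7.82 in F266A -dox and 6.03 and 6.24 in WT -dox (1.70). Ccn1, a matricellular protein and a known target of YAP, read 8.46 and 8.51 in F266A -dox and 6.74 and 6.88 in WT -dox (1.67), and Acta2, smooth muscle actin, read 10.58 and 11.32 in F266A -dox and 9.17 and 9.69 in WT -dox (1.52). The mean level of the 14 tested markers was 8.63 and 8.81 in F266A -dox and 7.56 and 7.64 in WT -dox. The collagens and surface proteins that define fibroblasts were not among them: Col1a1, Col3a1, Dcn, Lum, Postn, Thy1 and Pdgfrb stayed under the minimum in all 8 arrays, and Col1a2 read 6.14 and 6.71 in F266A -dox and 5.68 and 5.58 in WT -dox at its highest probe set. Whether other cells had a part in the counts of this list was not tested. Of 10 macrophage and leukocyte markers, 3 passed the minimum, with 0 higher and 2 lower, Cd68 (-0.65) and Laptm5 (-0.22), and Ptprc and Adgre1, which define these cells, never passed. Csf1r, the receptor of macrophage growth factor, passed at 5.89 and 6.05 in F266A -dox and 5.84 and 5.97 in WT -dox and was not called. Laptm5 was not called when any 1 array was left out.

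**Figure D3:**
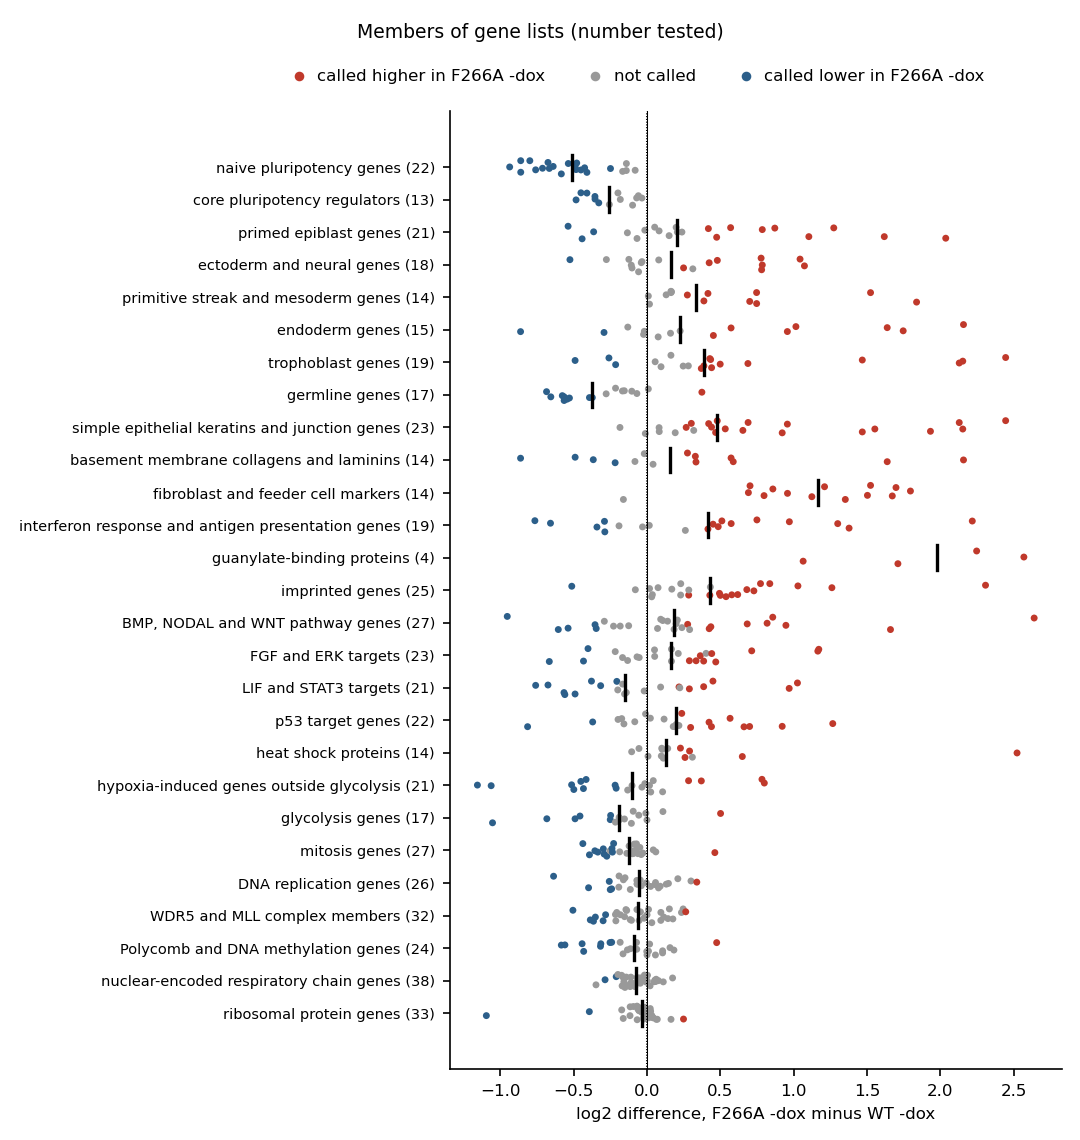
Log2 difference, F266A -dox minus WT -dox, of each tested member of 27 gene lists (rows, with the number tested), in red where called higher, blue where called lower and grey where not called; black bars are list medians and the dotted line is the median of all genes. Naive pluripotency genes lie left of 0 (median -0.51), while keratin and junction genes (0.48), fibroblast markers (1.17) and guanylate-binding proteins (1.98) lie right of it.

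Imprinted genes, which are expressed from 1 parental allele and are known to drift in cultured ESCs, were mostly higher. Of 25 measured, 14 were higher in F266A -dox (56%) and 1 was lower (4%), beside 14.0% and 13.4% over all genes. The median was 0.43. Beside Igf2, Peg3, a paternally expressed zinc-finger gene, read 9.07 and 9.31 in F266A -dox and 7.91 and 7.96 in WT -dox (1.26, with 1.20 to 1.36 over 3 probe sets). Sgce, a sarcoglycan, read 6.89 and 7.21 in F266A -dox and 5.96 and 6.08 in WT -dox (1.03), and Gnas, the stimulatory G protein, differed by 0.84, or by 0.29 and uncalled without an expression minimum. Mkrn3 was the lower member (-0.51) and was named after its value was seen. Of 17 germline genes, 9 were lower (52.9%) and 1 was higher (5.88%), with a median of -0.37. Among the lower were Tex14, of the bridges between germ cells (-0.69), Sycp3, of the synaptonemal complex (-0.66), and Piwil2, of the piRNA pathway (-0.58).

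Signalling genes differed in both directions. Over all genes 14.0% were higher and 13.4% lower. Of 27 BMP, NODAL and WNT pathway genes, 9 were higher in F266A -dox (33.3%) and 5 lower (18.5%), with a median of 0.18. Beside Sp5, Fst, which binds activin, read 7.71 and 7.85 in F266A -dox and 6.07 and 6.17 in WT -dox (1.66). Id1, a BMP target that blocks differentiation factors, read 10.29 and 10.15 in F266A -dox and 9.26 and 9.28 in WT -dox (0.95), whereas its family member Id4 read 6.81 and 6.46 in F266A -dox and 7.51 and 7.66 in WT -dox (-0.95). Of 23 FGF and ERK targets, 9 were higher (39.1%) and 3 lower (13%), with a median of 0.17. Phlda1 (1.17) and the ERK phosphatase gene Dusp4 (1.16) led the list. Without WT -dox replicate 1 that list had 4 higher and 2 lower. Of 21 LIF and STAT3 targets, 6 were higher (28.6%) and 8 lower (38.1%), with a median of -0.15. In the list the kinase Pim2 (1.03) and the AP-1 subunit Jun (0.97) were higher, and Klf4 and Tfcp2l1 lower as above. That list had 3 higher and 6 lower without WT -dox replicate 1.

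Calls among the partners of WDR5 are set against 14.0% higher and 13.4% lower over all genes. Of 32 genes of WDR5 and MLL complexes, 1 was higher in F266A -dox (3.12%). In the same list 6 were lower (18.8%, near the share over all genes), with a median of -0.06. The largest was Kmt2c, which encodes the methyltransferase MLL3, at 7.65 and 7.62 in F266A -dox and 8.18 and 8.11 in WT -dox (-0.51). Rbbp5, a core subunit, read 10.06 and 10.03 in F266A -dox and 10.41 and 10.39 in WT -dox (-0.35, adjusted p = 0.00285 by limma), and Phf20 and Hcfc2 differed by -0.37 and -0.39. Hcfc2 was at -0.12 and not called without an expression minimum (adjusted p = 0.376 by limma), and it was not called without WT -dox replicate 2 (adjusted p = 0.0574 by limma). Without WT -dox replicate 2 the list had 0 higher and 3 lower. Of 24 Polycomb and DNA methylation genes, 1 was higher (4.17%) and 8 were lower (33.3%), with a median of -0.09. In the list Dnmt3b, a de novo DNA methyltransferase, was higher (0.47). Tet2 (-0.58) and Tet1 (-0.56), which oxidise methylcytosine, were lower, though a probe set of Tet1 taken on its own was not called (-0.24). Without WT -dox replicate 2 that list had 1 higher and 4 lower. Of 19 mRNAs bound by WDR5 whose genes an earlier screen tied to pluripotency, 6 were higher and 1 was lower (median 0.05), with the nuclear receptor Nr6a1 (0.72) and the folate receptor Folr1 (0.65) ahead, and 4 were higher and 0 lower without WT -dox replicate 2. Of 8 Hox genes above the minimum, which MLL complexes are known to sustain, Hoxd9 alone was called (0.48, adjusted p = 0.0496 by limma), with both means under the minimum, and it was lost under most alternatives.

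Metabolic and stress genes are set against the 14.0% of all genes that were higher and the 13.4% that were lower. Of 21 hypoxia-induced genes outside glycolysis, 9 were lower (42.9%) and 4 higher (19%), with a median of -0.10: Egln3 and Bnip3, a mitophagy receptor at 10.21 and 10.42 in F266A -dox and 11.42 and 11.33 in WT -dox (-1.06), were the lowest, and Pfkfb3 (0.80) and Cited2 (0.78) the highest. Pfkfb3 was not called without F266A -dox replicate 2 (adjusted p = 0.066 by limma) or without WT -dox replicate 1 (adjusted p = 0.0739 by limma). Of 17 glycolysis genes, 6 were lower (35.3%) and 1 was higher (5.88%), with a median of -0.19 and Aldoc, an aldolase, at 8.38 and 8.55 in F266A -dox and 9.55 and 9.48 in WT -dox (-1.05). Of 38 nuclear-encoded respiratory chain genes, 2 were lower and 0 higher. Of 14 heat shock proteins, 5 were higher (35.7%) and 0 lower (median 0.13), and apart from Cryab the largest was Hspa1b (0.65). The 28 integrated stress response genes had 4 higher and 4 lower (14.3% each), near the shares over all genes, with Atf3, a factor also induced early by many stimuli, at 8.13 and 8.05 in F266A -dox and 6.88 and 7.07 in WT -dox (1.11). Of the other lists of this kind, 3 of 18 NRF2 and glutathione genes were higher and 5 lower, 2 of 20 ER chaperones were higher and 2 lower, 3 of 20 cholesterol synthesis genes were higher and 2 lower, 5 of 14 lipid-handling and endocytic receptor genes were higher and 4 lower, and 1 of 17 aminoacyl-tRNA synthetases was higher. These small counts depended on single arrays. Without WT -dox replicate 1 there were 2 higher and 0 lower for heat shock, 1 and 1 for NRF2, 4 and 1 for the lipid receptors, and 0 and 0 for the respiratory chain and for the synthetases. Without WT -dox replicate 2 there were 2 higher and 2 lower for the stress response, 2 and 2 for NRF2, 2 and 1 for cholesterol, 4 and 1 for the lipid receptors and 0 and 0 for the respiratory chain. Without F266A -dox replicate 1 there were 2 higher and 3 lower for NRF2, 1 and 2 for cholesterol, 4 and 1 for the lipid receptors and 0 and 1 for the respiratory chain. Without F266A -dox replicate 2 there were 3 higher and 0 lower for heat shock and 0 and 1 for the respiratory chain, which also had 0 and 1 without either F266A +dox array.

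Of 22 p53 target genes, 9 were higher in F266A -dox (40.9%) and 2 lower (9.09%), with a median of 0.20, beside 14.0% higher and 13.4% lower over all genes. Plk2, a stress-induced kinase, read 10.81 and 10.89 in F266A -dox and 9.47 and 9.70 in WT -dox (1.27), and Cdkn1a, the CDK inhibitor p21, read 9.68 and 9.88 in F266A -dox and 9.08 and 9.09 in WT -dox (0.70), while Rrm2b, a subunit of ribonucleotide reductase, was lower (-0.81). Of 15 G1 cyclins and CDK inhibitors, 5 were higher and 1 lower, with Cdkn2b (0.97) and Cdkn1c (0.73) higher and Cdkn1b lower (-0.50). Of 27 mitosis genes, 10 were lower and 1 was higher (median -0.12), but with WT -dox replicate 1 left out the counts were 1 lower and 1 higher, with WT -dox replicate 2 left out 2 lower and 1 higher, with F266A -dox replicate 1 left out 4 lower and 1 higher, and with F266A -dox replicate 2 left out 3 lower and 1 higher. Of 26 DNA replication genes, 5 were lower and 1 higher, or 2 lower and 1 higher without either WT -dox array. The 33 ribosomal protein genes had 1 higher and 2 lower, and Rpl39l, a ribosomal protein gene outside the general set, read 10.68 and 10.70 in F266A -dox and 11.77 and 11.81 in WT -dox (-1.10). Of 19 genes of the MYC family and its partners, 2 were higher (10.5%) and 3 lower (15.8%), near the shares over all genes, Myc itself differing by 0.47, a call lost without WT -dox replicate 2. That list had 2 higher and 1 lower without WT -dox replicate 1 and 1 higher and 1 lower without WT -dox replicate 2. No gene of the list for the 2-cell-like state passed the minimum.

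The same lines were then set side by side with doxycycline, with group means from arrays that the comparison above does not share. Both comparisons took the spread of each gene from 1 fit over all 8 arrays, so calls shared between them do not come from independent tests. With doxycycline, 3384 genes were called between the lines (28.3% of those tested), 1896 higher and 1488 lower in F266A +dox, or 1932 without F266A +dox replicate 1 and 2230 without WT +dox replicate 1. In both comparisons 1807 genes were called, 1731 of them in the same direction, which is 52.8% of the calls without doxycycline and 51.2% of those with it, and 76 were called in opposite directions. Of the 193 genes at least 2-fold higher without doxycycline, 186 were also called higher with it, and of the 23 lower genes 16 were also called lower. All 4 Gbp genes, Irgm1, Krt8, Krt18, Krt19, Igf2, Amot and Igfbp3 were called higher in both. Krt19 read 9.60 and 9.51 in F266A +dox and 6.93 and 6.90 in WT +dox, a difference of 2.64 beside 2.44 without doxycycline, and Gbp2 read 8.47 and 8.40 in F266A +dox and 5.76 and 5.87 in WT +dox, 2.62 beside 2.57. Among the genes lower in both, 2410003I16Rik differed by -2.08 with doxycycline and -1.27 without it, Serpinb6c by -1.24 and -1.12, Ly75, an endocytic receptor, by -1.05 and -1.02, Ly6g6e by -1.09 and -1.01, Tmem35b by -1.05 and -0.97, and Cyct, the testis cytochrome c, by -0.96 and -1.09. Naive pluripotency genes were 14 lower and 2 higher of 22 with doxycycline (median -0.31), keratin and junction genes 14 higher and 1 lower of 23 (median 0.37), fibroblast markers 11 higher and 0 lower of 14 (median 1.34), and primed epiblast genes 18 higher and 0 lower of 21 (median 0.48). The core regulators were 1 lower and 2 higher of 13 with doxycycline (median -0.02), and primitive streak and mesoderm genes 5 higher and 1 lower of 14 (median 0.04).

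Whether the line difference itself changed with doxycycline was tested as the difference without doxycycline minus the difference with it. This interaction was called for 615 genes (5.15% of those tested), 264 positive and 351 negative, with 2536 at an unadjusted p under 0.05. The count was 688 without F266A -dox replicate 1, and it fell when any other array was left out: to 174 and 240 without F266A +dox replicate 1 or 2, to 305 without F266A -dox replicate 2, to 270 and 379 without WT +dox replicate 1 or 2, and to 302 and 261 without WT -dox replicate 1 or 2. It was called for 27 of the 193 genes at least 2-fold higher without doxycycline and for 10 of the 23 lower. Sp5 was higher by 2.64 without doxycycline and by 1.56 with it (interaction 1.08, adjusted p = 0.0157 by limma), and Dsc2 by 1.93 without it and 0.30 with it (1.63, adjusted p = 0.00185 by limma). Dsc2 read 7.32 and 7.30 in F266A +dox and 7.02 and 7.0 in WT +dox. A2m turned round, at -1.50 without doxycycline and 0.68 with it (-2.19, adjusted p = 0.000189 by limma): with doxycycline it read 6.68 and 6.59 in F266A and 5.90 and 6.0 in WT. The HIF-responsive genes Egln3 (-1.16 and 0.54) and Bnip3 (-1.06 and 0.51) and the homeobox gene Gbx2 (-0.49 and 1.14) turned in the same way, and 9 of the 21 hypoxia-induced genes had a negative interaction call. Nupr1, a stress-induced chromatin protein, was at -0.76 without doxycycline and -2.57 with it (1.81), and 11 of the 28 integrated stress response genes had a positive interaction call. In that list 19 members were lower with doxycycline, when 4 were lower without it.

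**Figure D4:**
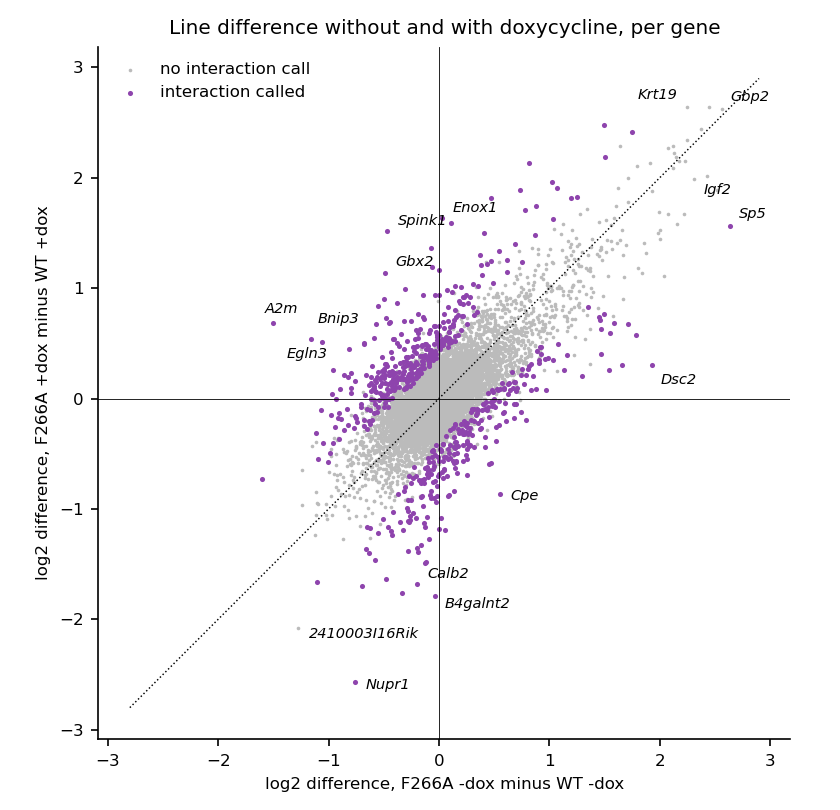
Each point is a gene, with the log2 difference F266A -dox minus WT -dox on the horizontal axis and F266A +dox minus WT +dox on the vertical axis; purple points have an interaction call and the dotted line marks equal differences. Krt19, Gbp2 and Igf2 lie near the line at upper right, while A2m, Egln3 and Bnip3 lie at upper left and Nupr1 at the bottom.

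The line difference was not even over the chromosomes. On chromosome 8, 204 of 652 genes were higher in F266A -dox (31.3%) and 30 were lower (4.6%), with 79.1% of its genes at a positive difference and a median of 0.15. Over chromosomes other than 6 and 8, 12.4% of 10701 genes were higher and 14.1% lower, with a median of -0.0196, and the medians of these single chromosomes, the 4 genes of Y left out, ran from -0.06 to 0.02. Chromosome 8 was raised along its length: in 13 runs of about 50 neighbouring measured genes the medians ran from 0.06 to 0.24. On chromosome 6 the rise was uneven. In 4 adjoining runs from Fmc1 to Aplf, 100 of 200 genes were higher and 7 lower (median 0.26), while among the other 371 genes of chromosome 6 there were 49 higher and 52 lower (median -0.0193). Those others include the adjoining run from Efcc1 to Slc25a26, with 14 higher and 2 lower of 50 and medians of 0.07 without doxycycline and 0.09 with it. The stretch was picked after its medians were seen and has no test. Of the 212 runs outside chromosomes 6 and 8, the medians ran from -0.14 to 0.17, the highest being the last run of chromosome 12, with 26 genes.

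Each array showed the same split. Against the mean of all 8 arrays, the median gene of the chromosome 6 stretch stood at 0.20 and 0.21 in F266A -dox and -0.04 and -0.06 in WT -dox, and the median gene of chromosome 8 at 0.12 and 0.11 in F266A -dox and -0.03 and -0.04 in WT -dox. With doxycycline the F266A line was again higher, by a median of 0.14 in the stretch and 0.09 on chromosome 8. DNA copy number was not measured in these arrays. Leaving the genes of both chromosomes out of the fit gave 2780 called genes, 192 of them at 2-fold. Col4a1, Col4a2, Dusp4 and Hmox1 lie on chromosome 8. Without both chromosomes the list counts changed to 1 higher and 3 lower for the integrated stress response and 0 higher and 2 lower for ER chaperones. They changed to 3 higher and 0 lower for G1 cyclins and CDK inhibitors. Aminoacyl-tRNA synthetases and Hox genes each went to 0 higher and 0 lower. Part of this is removal of called members, since Gars and Pdia4 lie on chromosome 6 and Calr on chromosome 8. Hoxd9 lies on chromosome 2 and was not removed, but it was no longer called. The endoderm and basement membrane lists also lost Col4a1 and Col4a2 in this way, and their counts are not given here.

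**Figure D5:**
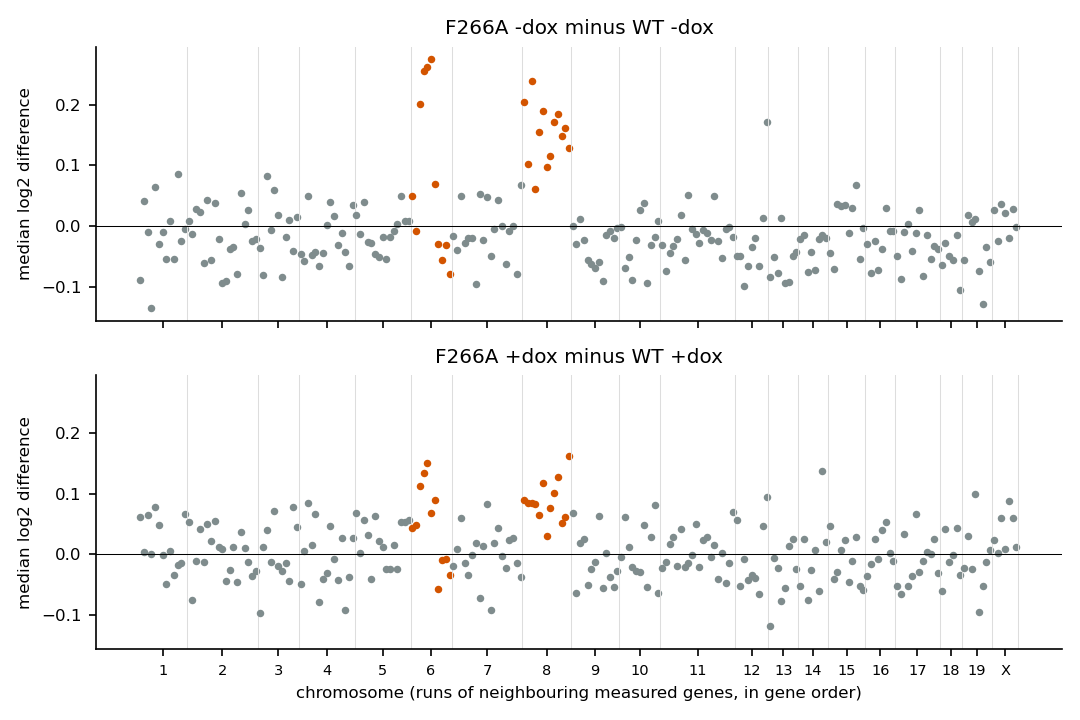
Median log2 difference between the lines in runs of about 50 neighbouring measured genes, without doxycycline (top, F266A -dox minus WT -dox) and with it (bottom, F266A +dox minus WT +dox), with chromosomes 6 and 8 in orange. All 13 runs of chromosome 8 lie above 0 in both panels, and the raised stretch of chromosome 6 reaches 0.28 without doxycycline and 0.15 with it.

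Genes of the sex chromosomes were also looked at. Eif2s3y, a translation factor gene on Y, read 8.44 and 8.36 in F266A -dox and 7.14 and 7.34 in WT -dox (1.17), and Uty, a histone demethylase relative on Y, read 6.66 and 5.90 in F266A -dox and 4.65 and 5.0 in WT -dox (1.45). Both were called higher with doxycycline too (0.65 and 1.29). Uty passed the minimum only in arrays of the F266A line, so its direction in both comparisons followed from the filter. The other 2 measured genes of Y, Orly (0.32) and Sry (-0.09), were not called. Of 8 genes of X inactivation or known to escape it, 1 was higher, Ftx, a noncoding RNA gene near Xist (0.76), and 0 were lower. Without F266A -dox replicate 1 or WT -dox replicate 1 there were 1 higher and 1 lower.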

How the data were processed

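RNA of the 4 groups, 2 arrays each, was hybridised to Affymetrix mouse expression arrays. The authors deposited 1 table of log2 values after RMA background correction, quantile normalization and summary per probe set, made per the submitters' processing notes with R 2.11.1. No detection calls were used here, and scanner files were not analysed. Of 45101 probe sets, 34945 had exactly 1 gene symbol in the platform annotation, 20046 of these passed a value of 50 on the linear scale in at least 1 of 8 arrays, and their average gave 11940 genes, 5061 from several probe sets. The number of arrays limits the precision, and the median SD between duplicates was 0.08.

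Group means were fitted over all 8 arrays with limma 3.58.1 in R 4.3.3 (lmFit, eBayes, two-sided, 4 residual degrees of freedom before moderation), with Benjamini-Hochberg adjustment over all genes and calls at an adjusted p under 0.05. The fit was tested on simulated data. The methods name SAM with a 2-fold minimum. SAM was not run as such, and a statistic with the median SE added to each SE stood in for it as an alternative. Its p-values came from a t distribution with 4 degrees of freedom, without permutations. The other alternatives were the expression minimum, the probe set rule, quantile normalization or median centring, array weights, a trended and robust prior, the contrast's groups alone, a replicate block, leaving out chromosomes 6 and 8, and leaving out each array.

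Named genes were 11 fixed by name, the 12 highest and 12 lowest 2-fold calls without overlap between groups, the 8 highest and 8 lowest called alike in both conditions without an interaction call, the 6 highest and 6 lowest of the interaction, and up to 4 called members with the largest change in each described list. The members and the 41 gene lists were chosen with earlier results of these data known, so no count over a list has a test. The lists overlap in 57 genes, so their counts are not separate results. Krt8, Krt18 and Krt19 count as trophoblast and as keratin genes. Col4a1 and Col4a2 count in endoderm and basement membrane, and Acta2 in mesoderm and fibroblast markers. Promoters came from RefSeq on GRCm38.p6 and were searched on both strands.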

Additional observations from a re-analysis of the deposited data

Results flagged for a closer look

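The differences between the lines that changed with doxycycline are given here as the difference without doxycycline minus the difference with it. The test of this change was called for 615 genes by limma. Beyond the genes described above, it was positive for B4galnt2, a glycosyltransferase (1.75), Calb2, a calcium-binding protein (1.49), Fgg, the fibrinogen gamma chain (1.44), Cpe, a carboxypeptidase of secretory granules (1.41), and Mixl1 (0.63). It was negative for Spink1, a trypsin inhibitor (-1.98), Enox1 (-1.60), Lrrc31 (-0.87) and Wscd2 (-0.80). Fgg passed the minimum only in the WT +dox arrays (6.54 and 6.69), so its interaction rests largely on that filter. The values for the genes already described were 1.81 for Nupr1, 1.63 for Dsc2 and 1.08 for Sp5, and -2.19 for A2m, -1.69 for Egln3, -1.63 for Gbx2 and -1.58 for Bnip3. With 2 arrays per group no array could be tested as standing apart from its group.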

How the results depend on the processing

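Of the 168 named genes, 136 kept their direction and their side of the threshold under all 21 alternatives other than the SAM-type statistic, and 161 lost their call under that statistic. It called 0 genes in each comparison, with 1229 at an unadjusted p under 0.05 without doxycycline, 1331 with it and 247 for the interaction. Its added constant lowers every value, and its p-values came from a t distribution with 4 degrees of freedom that it does not follow. The reason for the 0 calls was not tested. Leaving out 1 array gave 1944 to 3219 calls without doxycycline, 207 to 251 at 2-fold, 1932 to 3514 with doxycycline and 174 to 688 for the interaction, and the lone array of a group was assumed to vary like the others. Testing each probe set on its own gave 334 calls at 2-fold. The interaction had 290 calls without an expression minimum and 1110 with a trended and robust prior. Xbp1, a stress-response factor, was lower by limma (-0.25). Of its 4 probe sets tested on their own, 3 were lower (-0.46, -0.40 and -0.23, the first 2 called) and the dimmest was reversed at 0.0824, which was not called. No label says what the replicate numbers share. Replicate deviations correlated at 0.129 within the WT line, 0.165 within the F266A line and -0.176 to -0.111 between lines. A replicate block gave 2978 calls without doxycycline, 216 at 2-fold, 3105 with doxycycline and 451 for the interaction. The crossed pairing, added after the data were seen, gave 3696, 216, 3806 and 895 in the same order. Except where a value shows it, the cause was not tested. Genes near the minimum rest on dim probe sets.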
